A study of Mus musculus with 4 samples.

Results

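The genes described here are the histone genes of mouse CD8+ T cells after butyrate: 56 canonical core genes (H2A, H2B, H3 and H4), 6 replication-dependent linker genes (the Hist1h1 group), 3 replication-independent linker genes (H1f0, H1fx and H1foo) and 8 variant genes. They were chosen by symbol, as Hist followed by a digit and h or as a name starting with H1f, H2af or H3f, with at least 10 UMIs (unique molecular identifiers, each counting 1 captured RNA molecule) over barcodes of at least 6500 UMIs. Of 83 symbols of that form, 74 passed, out of 32285 genes in the count tables. The other 9 had fewer UMIs, and 5 of them had 0. One of the 74, H3f3aos, is annotated as an antisense transcript of H3f3a rather than a histone gene, so it is described apart and left out of all counts of histone genes.

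Butyrate-treated and control cultures were compared, with 2 libraries each. All 4 came from spleens of gBT-I.CD45.1 mice, whose CD8+ T cells carry a transgenic receptor, and all were activated with B6 splenocytes loaded with the matching gB peptide, plus LPS, and grown in IL-2 at 12.5 U/ml. The butyrate cultures received 0.5 mM sodium butyrate from day 3 to day 5, the control cultures received PBS, and sorted viable CD8+Vα2+ cells were loaded on day 6 for single-cell 3′ RNA sequencing. Replicate 1 of both groups came from mouse 2 and replicate 2 from mouse 3, so that each mouse gave a butyrate and a control culture. Age and sex of the mice were not used here.

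Histones package DNA into nucleosomes. An octamer of H2A, H2B, H3 and H4 wraps the DNA, and linker histone H1 binds where the DNA enters and leaves. Canonical histones are made mainly in S phase from gene clusters, and most of their mRNAs end in a conserved stem-loop, bound by the protein SLBP, in place of a poly(A) tail. Most variant histones and the linkers H1f0 and H1fx are made outside S phase as well, from genes with ordinary polyadenylated mRNAs. H2afx is an exception, as its annotated transcript also holds a stem-loop. Butyrate inhibits histone deacetylases, and H1f0, which encodes the linker H1.0 of resting and differentiated cells, is known from other cell types as a gene induced by it. The libraries were primed on poly(A), so the canonical values count polyadenylated or internally primed molecules and not the whole pool of canonical histone mRNA. Many canonical genes are near-identical in their coding sequence, and UMIs of 1 copy can be assigned to another or dropped, so values of single canonical genes are uncertain in this respect.

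The libraries held 76522004 and 74844548 UMIs in butyrate, against 64388093 and 74891790 UMIs in control. After filtering, 2560 and 2664 butyrate cells and 2059 and 2632 control cells were kept, with medians of 24816 and 23627.5 UMIs in butyrate and 21793 and 20494 UMIs in control. Pairs of libraries shared 1 to 6 cell barcodes. The 8 CD8 T cell markers summed to 9888 and 10490 CPM (UMIs scaled to the same total in each library) in butyrate and to 8434 and 8713 in control. The 6 B cell markers summed to 8.15 and 8.77 against 7.80 and 7.17 CPM, the 8 myeloid markers to 0.608 and 0.773 against 0.196 and 0.0641 with 4 of them at 0 throughout, and the 6 dendritic markers to 37.7 and 43.6 against 35.7 and 31.6. The 4 NK cell markers summed to 82.7 and 98.8 against 64.4 and 76.0 CPM, and the 4 erythroid or platelet markers to 0.739 and 0.569 against 0.137 and 0.256 with 2 at 0. The part of these cells in the histone values was not tested. Values below are UMIs of the kept cells summed per library and given as CPM with TMM scaling, unless another scale is named. Because they are sums over cells, fewer cells expressing a gene and less RNA per cell cannot be told apart in them.

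The stem-loops show which of the genes carry the S-phase form of mRNA end in the annotation (GENCODE M21, GRCm38). The histone stem-loop motif, 16 bases opening with GG and ending with CC whose arms pair, was looked for on the sense strand of the annotated transcripts. It was found in 40 of the 56 core genes, in 4 of the 6 Hist1h1 genes, in 0 of the 3 replication-independent linkers and in 1 of the 8 variants, H2afx. Among 58706 other protein-coding transcripts, 0.303% held such a run. Of the 16 core genes without it, 13 have an annotated 3′ untranslated region of at most 50 bases. For Hist1h1a and Hist1h1b, the Hist1h1 genes without it, that region is 48 and 0 bases. A site past such an annotated end would not be found. The sites below are printed 5′ to 3′ on the strand of the gene, with the 16 bases of the stem-loop in capitals. They cover both kinds of stem and genes described below that rose or fell.

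Hist1h1c (chr13:23739505-23739534, plus strand): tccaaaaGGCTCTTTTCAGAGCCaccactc
Hist1h1d (chr13:23555780-23555809, plus strand): ctcaaacGGCTCTTTTCAGAGCCacccaca
Hist1h3a (chr13:23761883-23761912, minus strand): aaccaaaGGCTCTTTTCAGAGCCacacacg
Hist1h2bk (chr13:22036293-22036322, plus strand): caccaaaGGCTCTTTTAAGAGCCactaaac
Hist1h4i (chr13:22040959-22040988, minus strand): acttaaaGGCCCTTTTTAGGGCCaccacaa
Hist1h4h (chr13:23531451-23531480, plus strand): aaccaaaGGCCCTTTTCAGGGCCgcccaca
Hist1h4b (chr13:23757359-23757388, plus strand): tacaaaaGGTCCTTTTCAGGACCactcact
H2afx (chr9:44335233-44335262, plus strand): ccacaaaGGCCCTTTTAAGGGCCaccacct

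Stem sequence followed the histone type. All 29 H2A, H2B and H3 genes with a site had a stem opening with GGCTC, and all 11 H4 genes with a site had one opening with GGCCC or GGTCC. H2afx, which encodes the variant H2A.X that is phosphorylated at DNA breaks, had the GGCCC form. In 19 core genes an annotated transcript runs more than 100 bases past the stem-loop, and in 13 of these the extra stretch holds AATAAA or ATTAAA, the usual poly(A) signals. All 4 Hist1h1 genes with a site also have such longer transcripts, as does H2afx.

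Across all kept cells, histone genes were called in both directions. H1fx had the largest increase among genes with UMIs above the low-count filter in both groups, H2afy and H2afj rose, H2afx and H3f3a fell, and canonical genes were called higher and lower. Of 73 histone genes 72 passed the low-count filter, and 16 were called higher while 22 were called lower (edgeR quasi-likelihood test with Benjamini-Hochberg adjustment, adjusted p under 0.05). This fit had no term for the mouse. Over all 13487 genes tested in it, 36.0% rose and 35.7% fell, so the 22.2% and 30.6% of histone genes were not above that background. Hist1h1t and H2afy2 are among the 16, and they met the low-count filter through the butyrate libraries only. The other 14 met it in both groups. The median log2 fold change of the histone genes was -0.18, against -0.0079 over all genes. With the mouse as a block, 20 of the 72 rose and 36 fell, where 36.8% and 36.6% of all genes did, so the share that fell was then above the background. With scaling by library totals alone, which moved the median of all genes to -0.21, 11 rose and 32 fell, where 25.2% and 49.8% of all genes did. In all cells, 20 of all 73 histone genes were higher in both butyrate libraries than in both control libraries and 35 were lower in both. Of the 13487 genes tested, 42.6% and 43.3% were. The 20 include H1foo, which did not pass the low-count filter.

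By class, the variants made up most of the histone RNA counted in these poly(A)-primed libraries. The 8 variants summed to 4604 and 4707 CPM in butyrate and to 4511 and 4489 CPM in control, 71.6 and 74.7% of the summed histone CPM in butyrate against 66.0 and 71.2% in control. The 56 core genes summed to 962 and 852 CPM in butyrate and to 1121 and 891 CPM in control, and the groups overlapped. The Hist1h1 linkers summed to 784 and 664 CPM in butyrate, against 1151 and 867 CPM in control, without overlap. Within each mouse their log2 ratio of butyrate to control was -0.55 and -0.39. The replication-independent linkers summed to 76.9 and 75.1 CPM against 55.2 and 61.5 CPM. In both groups the canonical sums were higher in the replicate from mouse 2, and control replicate 1 had the highest core and Hist1h1 sums of all 4 libraries.

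**Figure D1:**
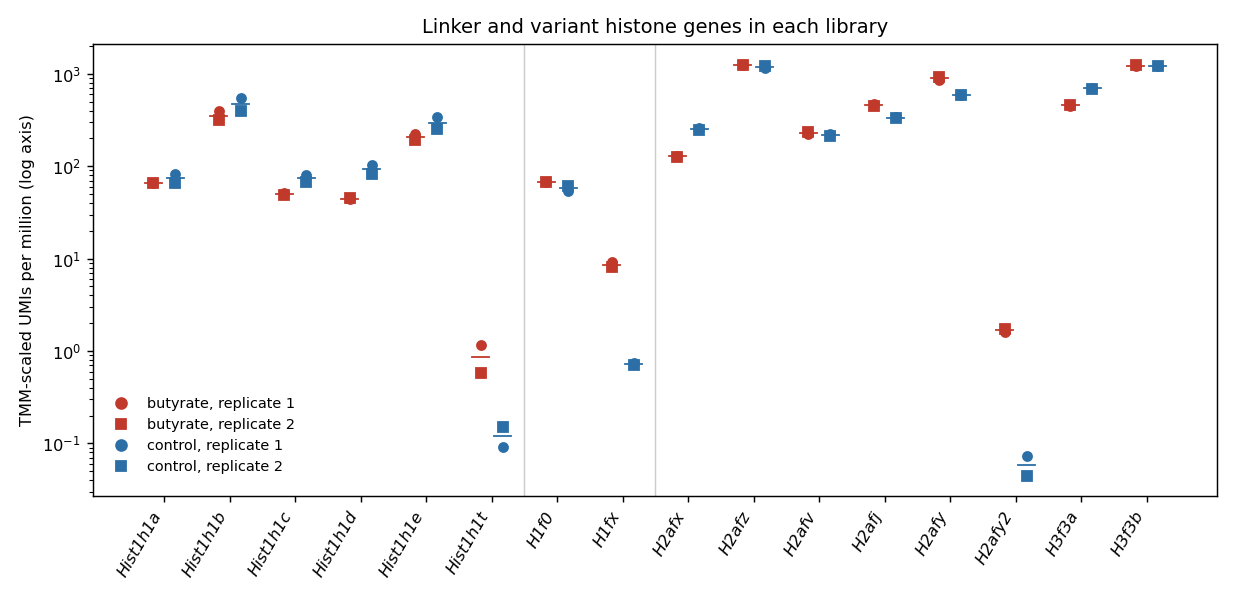
Level of each linker and variant histone gene in each library, as TMM-scaled CPM on a log axis, with butyrate (red) left of control (blue) and a bar at the mean of each group's 2 libraries. H1fx lay at 9.09 and 8.14 in butyrate, against 0.734 and 0.714 in control, while H2afx lay at 128 and 127 against 257 and 244.

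Among the replication-independent linkers, H1fx rose by far the most. H1fx encodes H1.10 (older name H1x), a divergent linker histone found in most somatic cells. The gene (ENSMUSG00000044927, chromosome 6, 87980421 to 87981637, minus strand, 1 exon) had 585 and 521 UMIs in butyrate, against 40 and 48 UMIs in control. That is 9.09 and 8.14 CPM in butyrate and 0.734 and 0.714 CPM in control, with no overlap. Its log2 fold change was 3.57 (SE 0.13, edgeR adjusted p = 5.75e-12), and it remained between 3.37 and 3.57 with library totals and with the mouse block. The gene model overlaps Gm47286 on the same strand and Gm5577 on the other strand, and reads of the overlapping stretch cannot be assigned to 1 of them with certainty.

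H1f0, the linker known as a butyrate-induced gene, rose only slightly on day 6, after 0.5 mM butyrate from day 3 to day 5. It had 67.7 and 66.8 CPM in butyrate and 54.4 and 60.7 CPM in control (chromosome 15, 79028450 to 79030504, plus strand, 1 exon). The log2 fold change was 0.22 (SE 0.05, edgeR adjusted p = 0.00143). Scaling by library totals gave 0.02 (edgeR adjusted p = 0.722), so this small rise depends on the scaling. H1foo, the oocyte linker, had 8 and 9 UMIs in butyrate and 0 and 0 UMIs in control. It did not pass the low-count filter, and no fold is given at this depth.

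The 5 somatic Hist1h1 genes were all lower on average under butyrate, and 2 of them passed the test without a term for the mouse. With the mouse as a block all 5 passed. Hist1h1d encodes H1.3 (chromosome 13, 23553262 to 23560686, plus strand) and had 44.4 and 44.9 CPM in butyrate, against 102.8 and 82.6 CPM in control. It fell by 1.05 on the log2 scale (SE 0.12, edgeR adjusted p = 0.00247). Hist1h1c, which encodes H1.2, had 51.8 and 49.1 CPM in butyrate and 81.4 and 66.9 CPM in control. It fell by 0.55 (SE 0.10, edgeR adjusted p = 0.00605). Leaving out butyrate replicate 1 or 2 raised the adjusted p of Hist1h1d to 0.0601 or 0.0616, and leaving out butyrate replicate 2 raised that of Hist1h1c to 0.0662.

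The other somatic linkers varied more between the libraries of a group. Hist1h1b (H1.5), the most abundant of them, had 394 and 314 CPM in butyrate and 542 and 400 CPM in control. Hist1h1e (H1.4) had 226 and 190 CPM against 342 and 252 CPM, and Hist1h1a (H1.1) had 66.5 and 65.1 CPM against 82.5 and 65.7 CPM. Their log2 fold changes were -0.41, -0.51 and -0.17, with edgeR adjusted p of 0.284, 0.180 and 0.314. With the mouse as a block, they passed in edgeR, with adjusted p of 4.58e-10 for Hist1h1b, 8.7e-10 for Hist1h1e and 0.0389 for Hist1h1a. Hist1h1a was nearly level in replicate 2, at 65.1 CPM in butyrate and 65.7 CPM in control. The sign of its log2 fold change turned with a mitochondrial limit of 5%. The annotated gene of Hist1h2be overlaps part of Hist1h1e on the same strand, so UMIs of the shared stretch may be exchanged.

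Hist1h1t, the linker of spermatocytes, was very low and met the low-count filter through the butyrate libraries only, so its values are given as a description. It had 74 and 37 UMIs in butyrate, against 5 and 10 UMIs in control, and the butyrate libraries differed from each other by more than the control libraries did. The ratio of its summed UMIs over the TMM-scaled totals was 7.01, with an exact 95% interval of 4.07 to 12.9 that covers counting error only. Of the other 5 Hist1h1 genes, 2 were called lower, and with the mouse block all 5 were, though Hist1h1a was nearly level in replicate 2.

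Among the variants, the macroH2A gene H2afy rose and H2afy2 was counted mainly in butyrate. MacroH2A carries a large non-histone domain and is found in silent chromatin. H2afy, which encodes macroH2A1 (chromosome 13, 56073619 to 56136361, minus strand), had 857 and 930 CPM in butyrate, against 590.0 and 594 CPM in control. It rose by 0.59 on the log2 scale (SE 0.05, edgeR adjusted p = 2.37e-08). H2afy2, which encodes macroH2A2 (chromosome 10, 61738665 to 61784147, minus strand), had 104 and 111 UMIs in butyrate and 4 and 3 UMIs in control. The ratio of its summed UMIs over the TMM-scaled totals was 29.1, with an exact 95% interval of 13.9 to 73.3 from counting error alone. It met the low-count filter through the butyrate libraries only, so this is a description. At 1.62 and 1.73 CPM in butyrate, H2afy2 stayed far below H2afy. Aifm2 overlaps its gene on the other strand.

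H2afj, which encodes the H2A.J variant, also rose. It had 476 and 452 CPM in butyrate, against 344 and 329 CPM in control (chromosome 6, 136808244 to 136810074, plus strand). The log2 fold change was 0.46 (SE 0.05, edgeR adjusted p = 2.61e-07), and scaling by library totals gave 0.26 (edgeR adjusted p = 6.36e-05).

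H2afx and H3f3a fell. H2afx (ENSMUSG00000049932, chromosome 9, 44334694 to 44336077, plus strand, 1 exon) had 128 and 127 CPM in butyrate, against 257 and 244 CPM in control. It fell by 0.97 on the log2 scale (SE 0.04, edgeR adjusted p = 5.43e-11). H3f3a (ENSMUSG00000060743, chromosome 1, 180800832 to 180813943, minus strand) encodes the replacement histone H3.3, which is deposited outside replication. It had 451 and 462 CPM in butyrate and 704 and 690 CPM in control, and it fell by 0.61 (SE 0.04, edgeR adjusted p = 5.52e-09). H3f3aos, on the other strand of H3f3a, had 26 and 30 UMIs in butyrate and 84 and 88 UMIs in control. It fell by 1.70 on the log2 scale (SE 0.22, edgeR adjusted p = 6.01e-06). Where the strands overlap, UMIs of H3f3a and H3f3aos are uncertain, as the sources used here do not give the counting settings.

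H3f3b, the other gene for the same H3.3 protein, did not pass the test. It had 1223 and 1236 CPM in butyrate, against 1227 and 1203 CPM in control, and its log2 fold change was 0.02 ± 0.04 (SE) with an edgeR adjusted p of 0.729. The 2 genes of the H2A.Z variant, which marks promoters, did not pass either. H2afz had 1242 and 1262 CPM in butyrate and 1162 and 1216 CPM in control (0.07, SE 0.04, edgeR adjusted p = 0.137). H2afv had 225 and 236 CPM against 226 and 213 CPM (0.07, SE 0.05, edgeR adjusted p = 0.177). With the mouse block H2afz passed (0.07, adjusted p = 0.0461). The sign of these 3 genes depends on the scaling: with library totals alone their log2 fold changes were -0.18 for H3f3b, -0.13 for H2afz and -0.13 for H2afv, and all 3 then passed as lower.

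The 56 canonical core genes are given by histone type, and differences between the types were not tested. Over all genes 36.0% rose and 35.7% fell. Of 16 H2A genes, 0 rose and 7 fell, with a median log2 fold change of -0.48. Of 16 H2B genes, 5 rose and 2 fell (median 0.13). Of 12 H3 genes, 3 rose and 3 fell (median -0.07), and of 12 H4 genes, 2 rose and 6 fell (median -0.54). Summed H2A levels were 264 and 254 CPM in butyrate, against 377 and 326 CPM in control, and did not overlap. Summed H2B levels were 238 and 214 CPM in butyrate and 247 and 188 CPM in control. Summed H3 levels were 244 and 207 CPM against 225 and 169 CPM, and summed H4 levels were 215 and 176 CPM against 273 and 207 CPM. The groups overlapped for H2B, H3 and H4. For H2A and H4 the ratio of butyrate to control was below 1 in both mice, at -0.51 and -0.36 and at -0.34 and -0.24 on the log2 scale, and for H3 it was above 1 in both, at 0.12 and 0.29. With library totals alone the ratio of H3 was -0.08 in mouse 2 and 0.09 in mouse 3, and the H2B difference of butyrate minus control turned to -21.7 CPM, against 8.84 CPM with TMM scaling. The H4 groups then no longer overlapped, nor did the groups of the summed core genes, whose difference was -231 CPM, against -99.0 CPM with TMM scaling and -17.3 CPM with a mitochondrial limit of 5%.

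**Figure D2:**
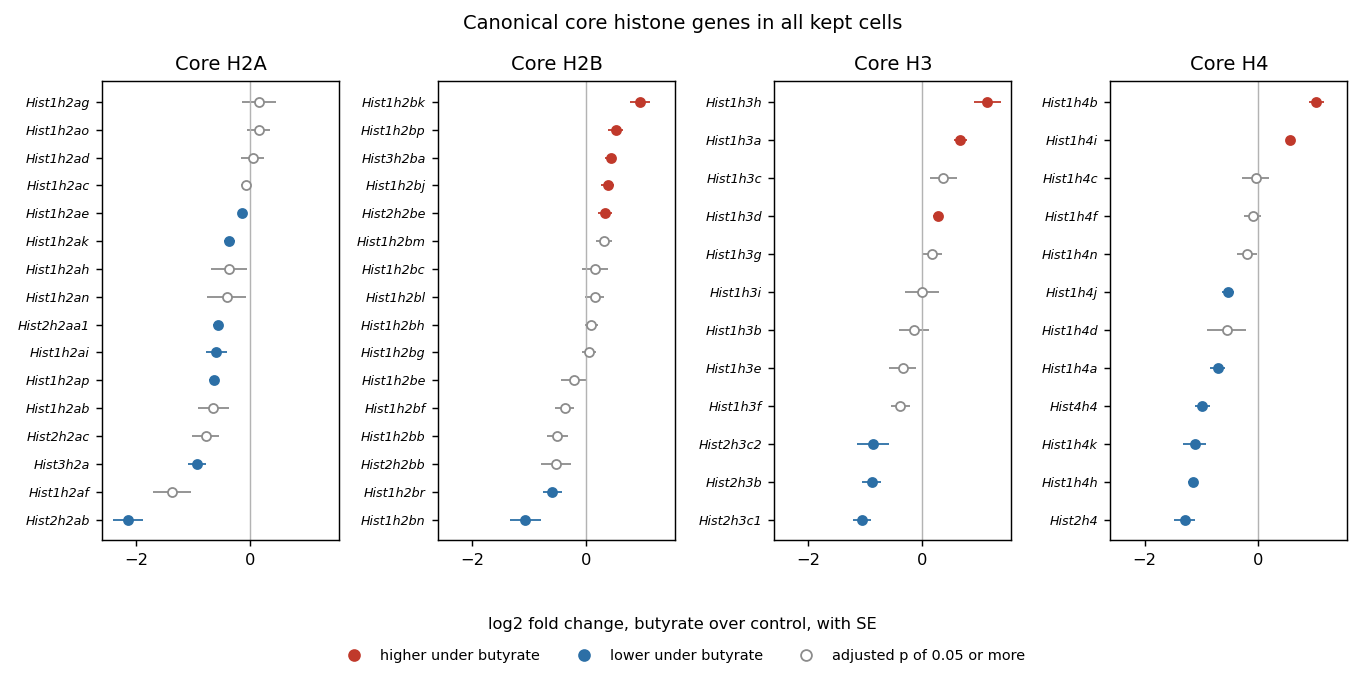
Log2 fold change of butyrate over control for each canonical core gene in all kept cells, with the standard error as a bar, grouped by histone type. Filled points passed an adjusted p of 0.05. The H2A panel has 0 filled points right of the zero line and 7 left of it, while the H2B panel has 5 right and 2 left.

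The largest core increases that passed, at 5 CPM or more on average, came from H2B, H3 and H4 genes of the Hist1 cluster on chromosome 13. Hist1h2bk had 17.3 and 13.5 CPM in butyrate, against 8.83 and 7.17 CPM in control (log2 fold change 0.96, SE 0.17, edgeR adjusted p = 0.00798). Hist1h3a had 51.4 and 46.2 CPM in butyrate and 33.6 and 27.4 CPM in control (0.68, SE 0.11, edgeR adjusted p = 0.00445). Hist1h4i had 58.2 and 56.1 CPM against 37.7 and 39.3 CPM, and it had the smallest standard error of these 5 genes (log2 fold change 0.57 ± 0.05, edgeR adjusted p = 4.78e-08). Hist1h2bj had 71.1 and 64.0 CPM against 56.6 and 46.7 CPM, and Hist1h3d had 12.4 and 12.7 CPM against 11.3 and 9.42 CPM. Their log2 fold changes were 0.39 and 0.28 (edgeR adjusted p = 0.0382 and 0.00702), and with library totals alone neither passed. Without butyrate replicate 1 the adjusted p of Hist1h2bj was 0.115, and without control replicate 2 that of Hist1h2bk was 0.0608 and that of Hist1h3d 0.123. Below 5 CPM on average, Hist1h3h (7.04 and 5.01 against 3.18 and 2.31 CPM) and Hist1h4b (5.95 and 4.79 against 2.81 and 2.47 CPM) rose by 1.15 and 1.03 on the log2 scale.

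The largest core decreases that passed at that level came from 3 clusters. Hist2h4, on chromosome 3, had 3.76 and 3.29 CPM in butyrate, against 10.1 and 7.29 CPM in control, and fell by 1.29 on the log2 scale (SE 0.18, edgeR adjusted p = 0.00107). Hist1h4h had 5.13 and 5.12 CPM in butyrate and 11.9 and 10.8 CPM in control. It fell by 1.15 (SE 0.08, edgeR adjusted p = 6.5e-09), while Hist1h4i of the same cluster, which encodes the same protein, rose. Hist4h4, on chromosome 6, had 3.79 and 3.03 CPM against 7.49 and 6.07 CPM and fell by 0.98. Hist1h2ap had 50.4 and 61.1 CPM against 87.3 and 85.0 CPM and fell by 0.63, and Hist1h2bn had 6.95 and 6.06 CPM against 16.3 and 11.1 CPM and fell by 1.07 (edgeR adjusted p = 0.00164 and 0.0474). Without butyrate replicate 1 or 2 the adjusted p of Hist1h2bn was 0.209 or 0.258, and without control replicate 2 that of Hist1h2ap was 0.0520. The lowest log2 fold change of any core gene, -2.14, was that of Hist2h2ab, which had only 15 and 15 UMIs in butyrate and 62 and 64 UMIs in control.

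The counts by position and by gene model are given without a test, beside 36.0% higher and 35.7% lower over all genes. In the Hist1 cluster on chromosome 13, 8 of 44 core genes rose and 10 fell (median log2 fold change -0.12). In the Hist2 cluster on chromosome 3, 1 of 9 rose and 6 fell (median -0.86). The 21 core genes whose transcripts end within 100 bases of the stem-loop had a median of 0.06, with 5 higher and 3 lower. The 19 with an annotated transcript running further had a median of -0.34, with 3 higher and 8 lower, and the 16 without a stem-loop in the model had a median of -0.47, with 2 higher and 7 lower. In 11 places, 2 core genes start within 1000 bases of each other on opposite strands and point away from each other. The members of a pair had log2 fold changes of the same sign in 3 of them and of opposite sign in 8, and in 0 pairs were both called in opposite directions. Hist1h2bk, at 0.96, faces Hist1h2ah at -0.37, 302 bases away, and Hist2h2be, at 0.34, faces Hist2h2ac at -0.78.

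Promoter motifs are given without a test, and their relation to the changes under butyrate was not tested. The 2 linker classes hold only 6 and 3 promoters. The windows run from 250 bases before to 50 bases after the RefSeq start (GRCm38.p6), and 66 of the 74 genes matched. The 7 motifs spelled out in the next sentences were searched on both strands, and none of them contains another, though matches may share bases at their ends. AAACACA was present in 5 of 6 Hist1h1 promoters, against 7.18% of 32851 mouse promoters, and in 0 of 3 replication-independent linkers. CCAAT was present in all 6 Hist1h1 promoters and in 42 of 50 core promoters (15 of 15 H2A, 14 of 14 H2B, 10 of 10 H3 and 3 of 11 H4), against 37.4% of all promoters. ATTTGCAT was present in 6 of 15 H2A and 5 of 14 H2B promoters, in 0 H3 and 0 H4 promoters, and in 1.74% of all promoters. TATAAA was present in 28 of 50 core promoters, against 13.6% of all. TTTGAA was present in 24 of 50 and in 17.9% of all, and GGGCGG in 18 of 50 and in 35.7% of all. GGGCGG was also in 4 of 6 Hist1h1 promoters and in 2 of 3 replication-independent linkers. CCAAT was also in 1 of 3 replication-independent linkers and in 6 of 7 variants. TTTGGCGC was in 0 of the histone promoters and in 0.514% of all. A match is a run of letters and does not show binding. Windows of core genes that point away from each other can overlap, so that the same site is counted for both genes. The ATTTGCAT site of Hist1h2ae is also that of Hist1h2bg, and Hist1h2ah shares its site with Hist1h2bk. The promoters of Hist1h1c, which fell, and of H1fx, which rose, are printed 5′ to 3′ with the matches in capitals (AAACACA and CCAAT in Hist1h1c, and GGGCGG read on the other strand in H1fx).

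Hist1h1c (chr13:23738557-23738856, plus strand): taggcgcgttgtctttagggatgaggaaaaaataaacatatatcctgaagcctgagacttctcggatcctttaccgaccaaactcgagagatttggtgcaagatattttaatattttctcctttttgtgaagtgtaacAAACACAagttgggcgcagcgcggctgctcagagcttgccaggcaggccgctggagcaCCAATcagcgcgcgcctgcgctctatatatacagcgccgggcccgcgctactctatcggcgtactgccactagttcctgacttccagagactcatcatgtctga
H1fx (chr6:87981433-87981732, minus strand): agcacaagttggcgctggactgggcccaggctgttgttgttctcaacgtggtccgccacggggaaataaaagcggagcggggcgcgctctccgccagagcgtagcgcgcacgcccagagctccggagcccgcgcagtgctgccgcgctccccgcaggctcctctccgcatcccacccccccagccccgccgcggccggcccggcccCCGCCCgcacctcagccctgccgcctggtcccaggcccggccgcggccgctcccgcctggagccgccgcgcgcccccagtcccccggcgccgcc

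The next comparison split the cells by proliferation, because canonical histone RNA follows S phase. Mki67 and Top2a encode proteins of cycling cells, and cells with 0 UMIs of both after thinning to 8000 UMIs are called negative here. The sums below use all UMIs of these cells, so Mki67 or Top2a UMIs left out by thinning can be among them. Negative cells numbered 351 and 387 in butyrate and 279 and 359 in control. These were 14.0 and 14.9% of the thinned cells in butyrate against 14.0 and 14.2% in control. Negative cells of butyrate had a median of 6 and 4 UMIs of the replication genes Mcm2 to Mcm7 and Pcna per 8000 UMIs, against 1 and 1 in control, so the negative cells of the 2 groups were not alike in their replication genes. Their median depth was 20528 and 18997 UMIs in butyrate, against 13428 and 12699 UMIs in control. The part of these differences in the results below was not tested.

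In negative cells, canonical histone RNA was higher under butyrate, in contrast with the other cells. The core genes summed to 346 and 283 CPM in butyrate, against 191 and 157 CPM in control. In the other cells they summed to 1039 and 928 CPM in butyrate and to 1219 and 966 CPM in control. In the negative cells all 4 core types were without overlap, with H3 at 94.9 and 74.6 CPM in butyrate and at 39.3 and 33.3 CPM in control. The Hist1h1 linkers summed to 202 and 173 CPM against 171 and 124 CPM in negative cells, and to 857 and 728 CPM against 1253 and 944 CPM in other cells. Both classes of canonical gene thus lay far below the other cells in the negative cells of each group.

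**Figure D3:**
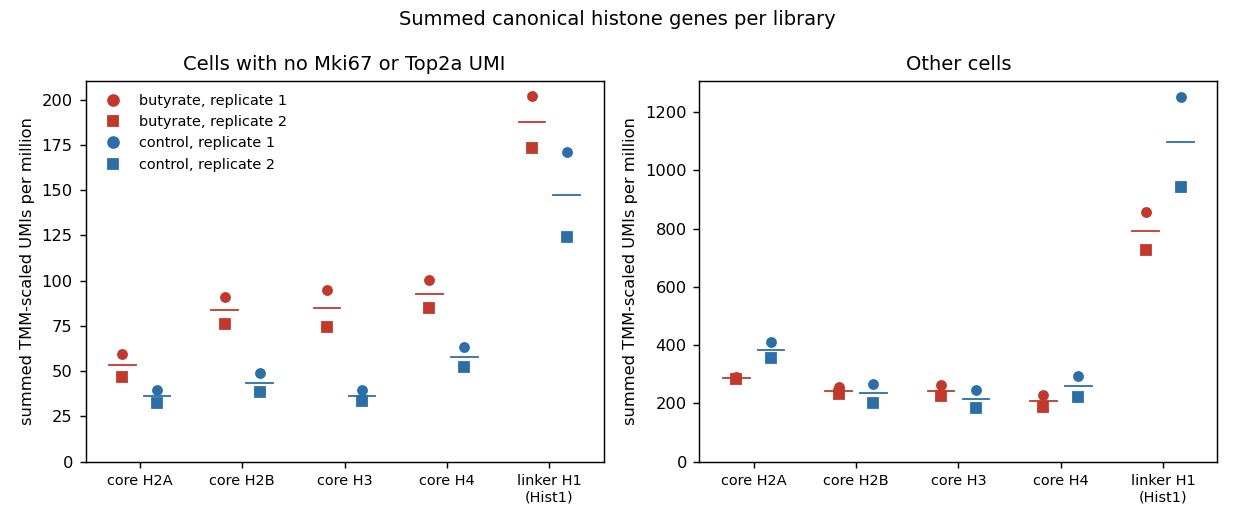
Summed TMM-scaled CPM of core H2A, H2B, H3 and H4 and of the Hist1h1 linkers in each library, for cells with no Mki67 or Top2a UMI and for the other cells, with butyrate (red) left of control (blue). Bars mark group means and the axes start at 0 with different upper ends. In negative cells the H3 sum was 94.9 and 74.6 in butyrate, above 39.3 and 33.3 in control.

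Gene by gene, 47 of 73 histone genes passed the low-count filter in negative cells, and 13 of them passed through 1 group alone, 10 through butyrate and 3 through control. Of these 47, 26 were called higher and 4 lower (edgeR adjusted p under 0.05), where 25.6% of all 10564 genes tested rose and 25.0% fell. Of the 34 that passed in both groups, 20 rose and 3 fell. In the other cells, 15 of 72 rose and 21 fell, where 35.7% and 35.5% of 13307 genes did. The test of the difference between the 2 responses, which had a term for each library, called 31 histone genes as responding more positively in negative cells and 3 as responding more negatively, out of 72. Over all 12800 genes tested, 13.8% and 9.61% were called. Of the 31, 22 were core genes, 5 were Hist1h1 linkers, 1 was H1f0 and 3 were variants.

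Among the linkers, Hist1h1c was called in opposite directions. In negative cells it had 32.6 and 35.0 CPM in butyrate, against 31.6 and 19.0 CPM in control (log2 fold change 0.45, SE 0.17, edgeR adjusted p = 0.0459), while in other cells it fell by 0.59 (SE 0.10, edgeR adjusted p = 0.00497). The difference was 1.07 (SE 0.13, edgeR adjusted p = 6.84e-07). The rise of Hist1h1c in negative cells came mainly from mouse 3, as the libraries of mouse 2 had 32.6 and 31.6 CPM. In thinned cells, without TMM scaling, negative cells of mouse 2 averaged 0.265 UMIs of Hist1h1c in butyrate and 0.272 in control. Those of mouse 3 averaged 0.279 and 0.192, so on that scale mouse 2 showed no rise. Hist1h1a had 19.6 and 16.1 CPM in butyrate and 9.51 and 7.42 CPM in control in negative cells, a rise of 1.09 (SE 0.18, edgeR adjusted p = 9.84e-05). Hist1h1b rose there by 0.79 (SE 0.25, edgeR adjusted p = 0.0376). Hist1h1d fell in both classes of cells, by 0.53 in negative and by 1.04 in other cells.

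Among the core genes, Hist1h3c had the smallest p of the difference (1.43, SE 0.15, edgeR adjusted p = 1.03e-07). In negative cells the log2 fold change of Hist1h3c was 1.78 (SE 0.18, edgeR adjusted p = 3.49e-07), against 0.37 in other cells, where it did not pass. Hist1h2ae rose by 1.35 in negative cells (SE 0.21, edgeR adjusted p = 4.81e-05) and fell by 0.13 in other cells. Hist1h2bk, Hist1h3a and Hist1h4i rose in both, by 1.82, 1.28 and 1.08 in negative cells and by 0.94, 0.68 and 0.55 in other cells. Hist3h2a, on chromosome 11, had 0.959 and 0.678 CPM in butyrate and 4.76 and 4.32 CPM in control in negative cells, where it met the low-count filter through control only, and it fell by 0.75 in other cells.

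Among the 8 variants, 3 responded more positively and 2 more negatively in negative cells by that test. H3f3a fell by 1.04 in negative cells, at 418 and 415 CPM in butyrate against 861 and 846 CPM in control, and by 0.57 in other cells. The difference between these, -0.43 (SE 0.05, edgeR adjusted p = 1.1e-07), passed the test. H2afx fell by 0.35 in negative cells and by 0.95 in others. H2afz rose in negative cells, with 825 and 768 CPM in butyrate and 612 and 664 CPM in control (0.32, SE 0.07, edgeR adjusted p = 0.000892). H2afy rose by 0.52 in negative and by 0.60 in other cells, and the difference of -0.04 did not pass (adjusted p = 0.591, edgeR). H1fx had 45 and 63 UMIs in negative cells of butyrate and 2 and 1 in those of control, and its difference was not called (adjusted p = 0.300, edgeR).

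**Figure D4:**
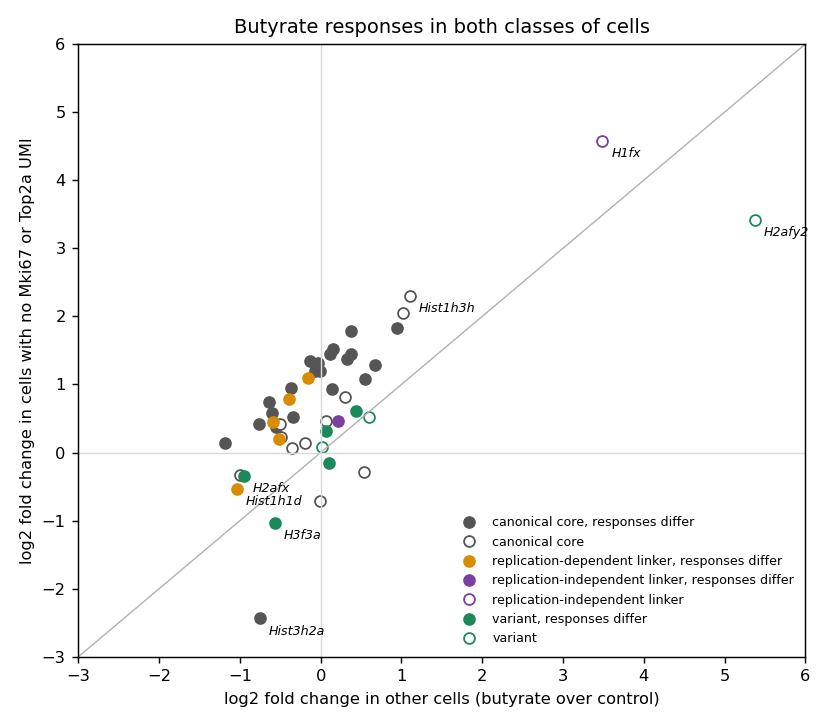
Log2 fold change of butyrate over control in cells with no Mki67 or Top2a UMI (vertical axis) against that in other cells (horizontal axis), for the histone genes tested in both, coloured by class, with the line of equal response. Filled points are those whose responses differed at an adjusted p of 0.05. Most core genes and all 5 Hist1h1 linkers tested in both lie above the line, while H3f3a (-1.04 against -0.57) and Hist3h2a (-2.44 against -0.75) lie below it.

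Along the replication score the classes also differed. Cells thinned to 8000 UMIs were put into 5 bins by their summed UMIs of Mcm2 to Mcm7 and Pcna, with limits of 4, 7, 9 and 13 UMIs, and mean UMIs per cell were taken in each library with no test. This scale is relative to the total UMIs of a cell, so it resembles scaling by library totals. In the lowest bin, core genes averaged 6.69 and 5.43 UMIs per cell in butyrate and 6.79 and 5.43 in control. In bin 2 they averaged 7.24 and 6.23 in butyrate, against 11.6 and 9.68 in control, and in the top bin 6.83 and 5.96 against 8.33 and 7.20. Hist1h1 linkers gave 5.22 and 3.79 in butyrate and 6.11 and 4.84 in control in the lowest bin, and 5.35 and 4.72 against 11.8 and 8.25 in bin 2. The step between the lowest bin and bin 2, large in control, was thus small in butyrate. Cells of the lowest bin were not alike in the 2 groups, with medians of 3 and 3 replication gene UMIs in butyrate and 2 and 2 in control. That bin held 18.8 and 23.4% of butyrate cells, against 25.9 and 25.6% of control cells. The part of this in the step was not tested.

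Single genes gave different shapes. H2afx averaged 1.03 and 1.00 UMIs per cell in butyrate, against 2.66 and 2.55 in control, in bin 2, and 0.532 and 0.656 against 1.14 and 1.15 in the top bin. H3f3a was lower in butyrate in every bin, with 3.20 and 3.27 UMIs per cell in butyrate and 7.15 and 6.81 in control in the lowest bin, and 2.79 and 2.93 against 5.24 and 5.23 in the top bin. H1f0 was highest in the lowest bin in butyrate, at 0.685 and 0.720 UMIs per cell, against 0.482 and 0.585 in control. In the top bin H1f0 gave 0.350 and 0.327 in butyrate and 0.306 and 0.376 in control, and the groups overlapped there. H2afz was higher in butyrate in the lowest bin, at 7.90 and 7.60 against 6.05 and 6.41 UMIs per cell, and lower in the other bins.

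**Figure D5:**
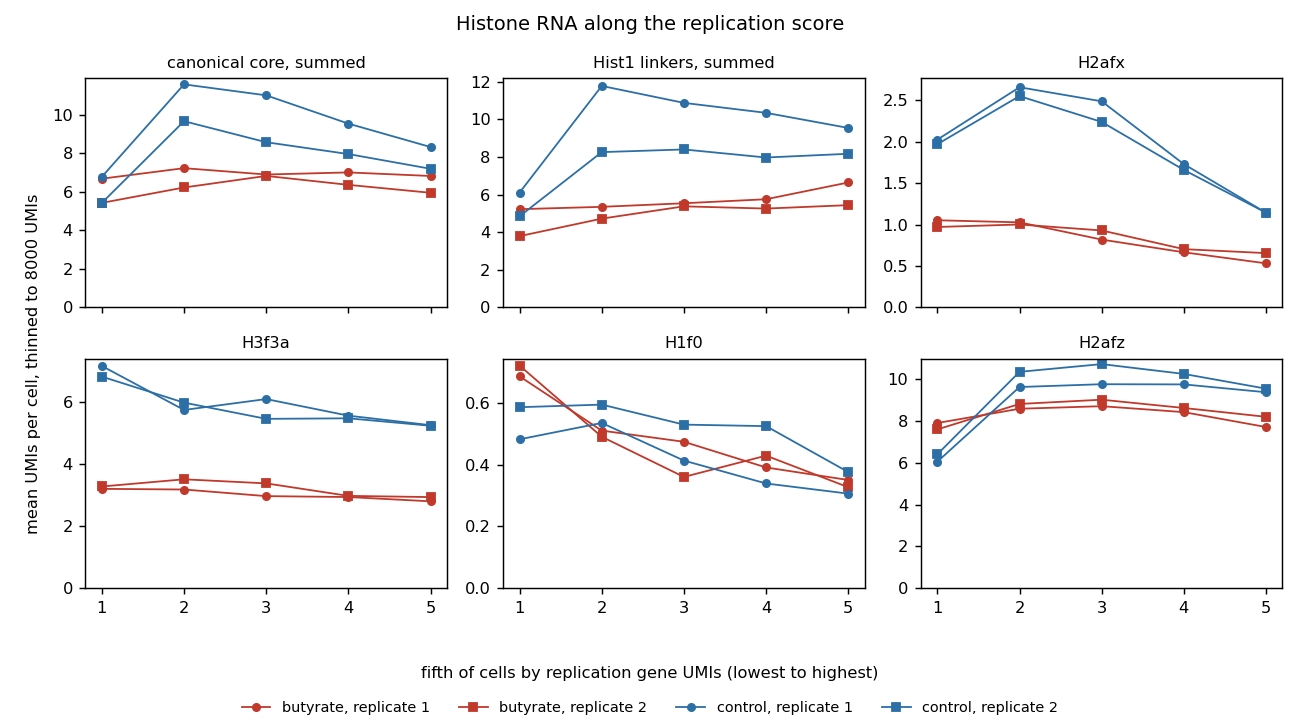
Mean UMIs per cell, in cells thinned to 8000 UMIs, over 5 bins of cells by their replication gene UMIs from lowest to highest, for the summed core genes, the summed Hist1h1 linkers and 4 single genes, with 1 line per library (butyrate red, control blue). Both control lines of the core genes lie above both butyrate lines in bin 2 (11.6 and 9.68 against 7.24 and 6.23), while in the lowest bin they overlap.

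Shares of cells moved with the levels for the 3 genes given in full here, H1fx, H2afx and Hist1h1d, but not for every called gene. H1f0, called higher, was found in 29.7 and 30.7% of thinned butyrate cells and in 28.8 and 32.7% of control cells. Hist2h2be, also called higher, was found in 2.2 and 2.2% against 2.9 and 2.5%. After thinning to 8000 UMIs, an H1fx UMI was found in 5.63% (exact 95% interval 4.76 to 6.60) and 5.47% (4.63 to 6.42) of butyrate cells, against 0.453% (0.207 to 0.858) and 0.516% (0.275 to 0.881) of control cells. Without thinning the shares were 14.5 and 12.6% in butyrate and 1.65 and 1.14% in control. In barcodes of up to 100 UMIs, which hold free RNA, H1fx was at 7.31 and 8.82 CPM in butyrate and at 0.214 and 0.543 in control. H2afx was found in 44.1 and 45.9% of thinned butyrate cells, against 64.99 and 63.4% of control cells, and in 69.1 and 67.3% against 79.2 and 77.9% without thinning. Its free RNA was at 122 and 114 CPM in butyrate and at 274 and 260 CPM in control. Hist1h1d was found in 25.4 and 26.0% of thinned butyrate cells and in 45.2 and 41.6% of control cells, and without thinning in 53.5 and 51.6% against 67.2 and 62.6%. Its free RNA was at 42.9 and 46.4 CPM in butyrate and at 77.6 and 64.2 CPM in control, so the free RNA of all 3 genes moved with their level in cells, and its part in the shares was not tested. All 3 shares were apart without overlap, and the exact two-sided permutation p was 0.333, the smallest that 2 against 2 libraries can give.

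Genes that make, process and place histones were described from a list of 48 symbols, of which 46 were found and all 46 were tested. Of these, 10 rose and 24 fell, where 36.0% and 35.7% of all genes did, and the median log2 fold change was -0.21. The 15 tested genes for processing and transcription of canonical histone RNA held 4 that rose and 9 that fell. Slbp, the stem-loop binding protein, had 167 and 171 CPM in butyrate, against 142 and 138 CPM in control (0.27, SE 0.04, edgeR adjusted p = 2.99e-05). Npat, the coactivator at histone clusters, had 15.2 and 14.0 CPM against 18.8 and 17.4 CPM and fell by 0.31 on the log2 scale. Eri1, the exonuclease that trims histone mRNA ends, rose by 0.30, and Zfp473, a zinc finger protein of the histone processing complex, had 0.746 and 1.08 CPM in butyrate and 1.67 and 1.61 CPM in control and fell by 0.84.

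Of 16 chaperones of canonical histones, 5 rose and 4 fell. Asf1b, which hands H3 and H4 to the replication fork, had 118 and 124 CPM in butyrate and 78.9 and 74.6 CPM in control, the largest rise of the list (0.66, SE 0.05, edgeR adjusted p = 4.83e-09). Chaf1b, of the CAF-1 assembly complex, rose by 0.37, and Hat1, which acetylates new H4, rose by 0.35. Of 15 genes for deposition and exchange of variants, 1 rose and 11 fell, with a median of -0.39. Srcap, the ATPase that inserts H2A.Z, had 12.1 and 11.8 CPM in butyrate and 26.6 and 25.5 CPM in control and fell by 1.12. Hjurp and Cenpa, the centromeric chaperone and its H3 variant, fell by 1.02 and 1.01. With library totals alone, 3 genes of the list rose and 34 fell, where 25.2% and 49.8% of all genes did.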

How the data were processed

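The authors deposited unfiltered matrices of UMI counts, with a line per gene and barcode. Per the submitters' processing notes the authors used Cell Ranger 4, Seurat 4.3 and mm10. Members and gene lists were chosen with earlier results of these data known. Cells were barcodes above 10% of the 99th percentile of the top 3000, with at least 500 genes and under 10% mitochondrial UMIs. No doublets were removed. UMIs were summed per library and tested in edgeR 4.0.16 (R 4.3.3) with TMM scaling, filterByExpr and the robust quasi-likelihood test, adjusted over all genes. SE is the log2 fold change over the square root of F. The p-values pool variation over genes, from 2 cultures per group. The fit was tested on simulated counts. DESeq2 1.42.0 was an alternative. Same-numbered libraries came from the same mouse by their library names, which pairs them. Their deviations from the group means correlated at 0.0594 across genes, and the coefficient of variation was 0.0405 without and 0.0336 with a mouse block. The difference between responses of negative and other cells was tested on 8 sums with a term per library. Coordinates are GENCODE M21, where 32235 of 32285 gene IDs were found, and promoters are RefSeq GRCm38.p6. Genes given in full were H1f0, H1fx, the variants, the Hist1h1 genes, the 5 largest core changes each way that passed, with at least 5 CPM and no overlap, and the 4 largest each way of the list of genes that process and place histones. Other members named were chosen after their values were seen. Intervals cover counting error only.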

Additional observations from a re-analysis of the deposited data

Results flagged for a closer look

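The butyrate response of 34 histone genes differed between cells without Mki67 and Top2a UMIs and the other cells, by the test of the difference itself (edgeR, adjusted p under 0.05). Each value below is the log2 fold change in negative cells minus that in other cells. Among linkers it was 1.28 for Hist1h1a, 1.21 for Hist1h1b, 1.07 for Hist1h1c, 0.53 for Hist1h1d, 0.73 for Hist1h1e and 0.29 for H1f0. Among variants it was 0.63 for H2afx, 0.29 for H2afz and 0.21 for H2afj, and it was -0.23 for H2afv and -0.43 for H3f3a. Among core genes it was 0.91 for Hist1h2bk, 0.63 for Hist1h3a, 0.57 for Hist1h4i, 1.10 for Hist1h2bj, 1.36 for Hist1h4h, 1.22 for Hist1h2ap, 1.43 for Hist1h3c and 1.51 for Hist1h2ae, and -1.67 for Hist3h2a. Negative cells of butyrate had more replication gene UMIs than those of control (medians of 6 and 4 against 1 and 1), and the part of this in the differences was not tested. Requiring 0 UMIs of Pcna and Mcm2 to Mcm7 too left 32 and 58 cells in butyrate and 85 and 103 in control. With that split 13 histone genes were called, where 6.19% of all 12689 genes tested were. How many histone genes could be tested with it is not given here, so their share is not set against that background.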

How the results depend on the processing

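With the mouse as a replicate block, 36 histone genes fell, against 22 without it. DESeq2's Wald test called 17 higher and 2 lower in negative cells, against 26 and 4, while over all genes it called 16.9% and 13.3%, against 25.6% and 25.0%. The split with replication genes called 8 higher and 1 lower in negative cells, where 14.2% and 12.5% of all 6730 genes tested were. It called 13 with differing responses. Library totals alone left 3 higher genes on the list of genes that process and place histones, against 10, and moved the butyrate minus control difference of summed CPM to 8.42 for replication-independent linkers, against 17.7, and to -479 for variants, against 155. A mitochondrial limit of 5% gave 35.8 for variants. Leaving out 1 library leaves a group with only 1 library, so counts of called genes from those fits are not given. Signs turned for H2afz (-0.13) and for H2afv (-0.13) with library totals, for H2afv with thinned cells (-0.12), and for H3f3b with library totals (-0.18), and with the 5% limit (-0.026), and for Hist1h1a with the 5% limit (0.051). Leaving out 1 library gave -0.0020 (without control replicate 2) to 0.024 (without butyrate replicate 1) for H3f3b. Of 475 comparisons of named genes with an alternative, 440 kept direction and side of the threshold. The depth of the libraries limits H1foo, Hist1h1t and H2afy2, and the number of negative cells limits 26 histone genes that could not be tested there.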
